A study of Mus musculus with 6 samples.

Results

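The genes described here make, package, take up or specify serotonin and the catecholamines. They are Ddc, Tph2, Th, Fev, Lmx1b, Gch1, Slc18a2 and Slc6a4. Of these 8 genes, 7 had a probe set with their symbol alone in the platform annotation, and Fev was not analysed here. The 7 genes had 10 probe sets, of 18193 genes and 45037 probe sets in all. The genes were chosen by their roles with the comparison of Ag1.3 and RA cultures on these same arrays already known. Their own differences in that comparison are therefore a description, and the limma counts given for them below support nothing.

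RNA came from neuralized embryoid bodies, which are mouse embryonic stem cell aggregates grown in suspension to form neural progenitors. The 3 Ag1.3 cultures were treated for 3 days, after 2 days in suspension, with all-trans retinoic acid (RA) at 500 nM together with 50 nM of Ag1.3. Ag1.3 activates Smoothened, the membrane switch of the Sonic hedgehog pathway. The 3 RA cultures received 500 nM retinoic acid alone over the same days. Cultures with the same replicate number were grown in parallel, which makes 3 pairs. Cultures of both groups came from 1 stem cell line with a Gli1-FLAG transgene driven constitutively by the Rosa26 promoter, so no group lacked this transcription factor of the hedgehog pathway. Each culture was read on 1 Affymetrix 3' array. Such an array does not separate transcript isoforms or start sites.

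Serotonin and the catecholamines are made along parallel routes. Tph2 in serotonin neurons and Th in catecholamine neurons hydroxylate tryptophan and tyrosine with the cofactor tetrahydrobiopterin, whose synthesis begins with Gch1. Ddc then decarboxylates both products, Slc18a2 loads the amines into vesicles, and Slc6a4 takes serotonin back up from outside the cell. Fev and Lmx1b are transcription factors of serotonin neurons, and Lmx1b also acts in midbrain dopamine neurons and dorsal spinal interneurons. In the embryo, hindbrain serotonin neurons arise from ventral progenitors exposed to Sonic hedgehog.

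Promoter windows, the 250 bases before an annotated start, are shown for Ddc and Slc18a2 because these genes had the widest ranges over the 6 arrays. They are RefSeq sequences of mouse build GRCm38.p6, 5′ to 3′ on the gene's strand. Capitals mark the letters read by zinc finger factors such as Gata3, which are AGATAA on the opposite strand. Ddc has 2 annotated starts 7.74 kb apart. The first window below lies at chr11:11890409-11890658 and the second at chr11:11898145-11898394, both on the minus strand. The Slc18a2 window lies at chr19:59260628-59260877 on the plus strand.
Ddc, first window: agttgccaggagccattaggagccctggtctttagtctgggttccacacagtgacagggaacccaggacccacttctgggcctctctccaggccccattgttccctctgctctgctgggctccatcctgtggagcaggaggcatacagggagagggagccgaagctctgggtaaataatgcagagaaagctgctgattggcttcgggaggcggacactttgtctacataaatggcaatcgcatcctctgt
Ddc, second window: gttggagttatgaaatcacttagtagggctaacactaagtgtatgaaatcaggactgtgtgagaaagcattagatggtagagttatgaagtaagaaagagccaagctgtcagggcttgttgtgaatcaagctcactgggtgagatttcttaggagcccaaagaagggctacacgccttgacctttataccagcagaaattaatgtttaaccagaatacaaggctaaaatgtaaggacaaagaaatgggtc
Slc18a2: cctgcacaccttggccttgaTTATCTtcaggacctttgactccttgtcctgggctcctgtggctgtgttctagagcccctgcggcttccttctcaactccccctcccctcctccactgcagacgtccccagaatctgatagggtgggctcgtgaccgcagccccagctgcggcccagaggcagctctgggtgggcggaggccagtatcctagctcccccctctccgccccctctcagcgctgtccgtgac
The 2 Ddc windows differed in base composition, with 56% G and C and 4 CpG in the first and 40.8% and 1 CpG in the second. The Slc18a2 window had 64% and 9 CpG. These motifs were searched on both strands: GACCACCCA (Gli factors), CCGGAA (ETS factors, the family of Fev), AGATAA (zinc finger factors such as Gata3) and, for LIM homeodomain factors, TAATTA (bound by factors such as Lmx1b and reading alike on both strands). Over 32851 promoter windows of the same length, 0.225%, 12.0%, 9.99% and 4.84% held them. Neither Ddc window held any of them, and the same was true of Th, Lmx1b, Gch1 and Slc6a4. The letters AGATAA stood 230 bases before the Slc18a2 start, 128 before that of Tph2 and 118 before that of Fev, and TAATTA stood 69 before that of Fev. A match describes these letters and no binding site.

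The arrays were alike in overall level, with median intensities of 48.8 to 52.6 for Ag1.3 and 48.7 to 51.9 for RA. Actin 3' to 5' ratios, which reflect RNA integrity, were 1.33 to 1.63 for Ag1.3 and 1.46 to 1.51 for RA. Control probe sets whose transcripts were not spiked in read 4.02 to 20.7 over the 6 arrays, and a value in this range is close to background. A value above it is no detection call, and the median probe set read 50.3. Of genes known from neural progenitors, though not only from them, Sox2 read 2462 to 2900 over the 6 arrays. Sox1 read 288 to 529 and Nes 125 to 333. The RNA is from whole aggregates, so fewer cells of a type and less RNA per cell cannot be told apart. Fold changes below are of log2(intensity + 16), Ag1.3 over RA, with limma's standard error.

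The difference between the cultures lay mainly in Ddc. Slc18a2 and Th were higher by smaller amounts, and Lmx1b, Gch1, Tph2 and Slc6a4 differed little or were at background. Ddc (chromosome 11, 11814101 to 11898144 in GRCm38.p6) encodes aromatic L-amino acid decarboxylase. Its first probe set, 1426215_at, read 629, 681 and 513 in Ag1.3 replicates 1 to 3, against 138, 150 and 245 in RA replicates 1 to 3. The lowest Ag1.3 value was above the highest RA value. The log2 fold change was 1.72 ± 0.22 (SE, 3 pairs), a 3.28-fold difference of 607 ± 86.0 in Ag1.3 and 178 ± 58.1 in RA cultures (SD, n = 3 each).

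The second Ddc probe set, 1430591_at, read 187, 162 and 113 in Ag1.3 and 8.16, 9.79 and 12.5 in RA cultures. All RA values lay in the range of the unspiked controls and all Ag1.3 values above it. Its log2 fold change was 2.68 ± 0.18, a value that understates the ratio because the RA level is close to background. In both probe sets pair 3 showed the smallest difference. By pair, the log2 fold change was 2.06, 2.07 and 1.02 for the first probe set and 3.07, 2.78 and 2.18 for the second. In pair 3 the Ag1.3 culture had the lowest Ddc of its group and the RA culture the highest, on both probe sets.

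**Figure D1:**
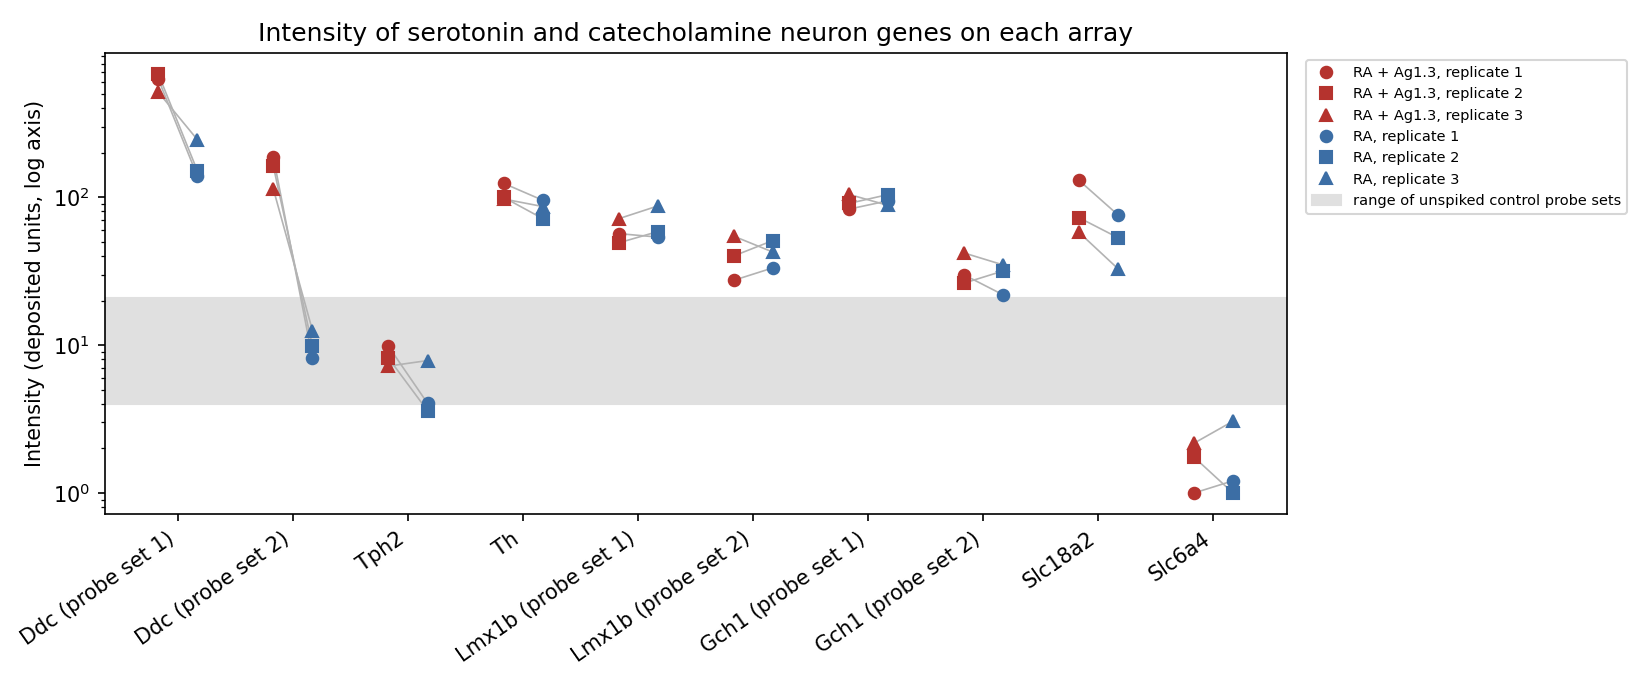
Intensities of the 10 probe sets on a log axis, RA + Ag1.3 in red left of RA in blue, with symbols for the replicate number and lines joining parallel cultures; the grey band is the range of the unspiked controls, 4.02 to 20.7. Both Ddc probe sets separate the groups, the RA values of the second lie in the band, Tph2 lies in or under it, and Slc6a4 lies under it.

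The vesicular transporter Slc18a2 (chromosome 19, 59260878 to 59296012), known as Vmat2, read 130, 72.8 and 57.9 in Ag1.3 and 75.9, 53.2 and 32.8 in RA cultures. It was higher in the Ag1.3 culture of all 3 pairs, but the groups overlapped, since RA replicate 1 exceeded Ag1.3 replicates 2 and 3. Replicate 1 was highest and replicate 3 lowest in both groups. The log2 fold changes by pair were 0.67, 0.36 and 0.60, and the mean was 0.54 ± 0.09, a 1.46-fold difference. Slc18a2 averaged 86.9 ± 38.1 in Ag1.3 and 54.0 ± 21.5 in RA cultures (SD, n = 3 each), and the group means differed by less than the SD of the Ag1.3 cultures.

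Tyrosine hydroxylase, Th (chromosome 7, 142892779 to 142899995), sets the rate of catecholamine synthesis. It read 124, 99.9 and 97.2 in Ag1.3 and 95.4, 71.7 and 86.5 in RA cultures. The groups did not overlap, by a margin of less than the spread within either group. The log2 fold change was 0.29 ± 0.09, or 1.22-fold, with 0.33, 0.40 and 0.14 by pair. Tryptophan hydroxylase 2, Tph2 (chromosome 10, 115078641 to 115185022), sets the rate of serotonin synthesis in neurons. It read 9.82, 8.17 and 7.21 in Ag1.3 and 4.04, 3.60 and 7.86 in RA cultures. All 6 values were in or under the range of the unspiked controls and the groups overlapped, so no level of Tph2 could be told from background. Its log2 fold change of 0.21 ± 0.10 was -0.04 in pair 3.

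Gch1, GTP cyclohydrolase (chromosome 14, 47153895 to 47189413), read above the unspiked controls and differed little. Its first probe set, 1420499_at, read 83.0, 90.6 and 105 in Ag1.3 and 94.4, 104 and 88.0 in RA cultures. The groups overlapped, with the Ag1.3 culture lower in pairs 1 and 2 and higher in pair 3, and the log2 fold change was -0.04 ± 0.10. The second, 1429692_s_at, read 29.9, 26.2 and 42.0 in Ag1.3 and 21.9, 31.7 and 34.9 in RA cultures, with a log2 fold change of 0.10. These groups overlapped too, with both means below the median probe set, and the probe sets differed in sign.

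The homeodomain factor Lmx1b (chromosome 2, 33560965 to 33641208) read above the unspiked controls and differed little. Its probe set 1441729_at read 56.7, 49.1 and 71.5 in Ag1.3 and 53.7, 58.5 and 87.2 in RA cultures. The second, 1421769_at, read 27.4, 40.0 and 54.5 in Ag1.3 and 33.3, 50.9 and 42.6 in RA cultures. On both probe sets all values lay above the unspiked controls and the groups overlapped. The second averaged below the median probe set of 50.3 in both groups. The log2 fold change was -0.12 ± 0.09 for the first and -0.06 for the second. The serotonin transporter Slc6a4 (chromosome 11, 76998597 to 77032343) read 1, 1.75 and 2.17 in Ag1.3 and 1.21, 1 and 3.06 in RA cultures, all under the lowest unspiked control value. Its log2 fold change was -0.01.

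**Figure D2:**
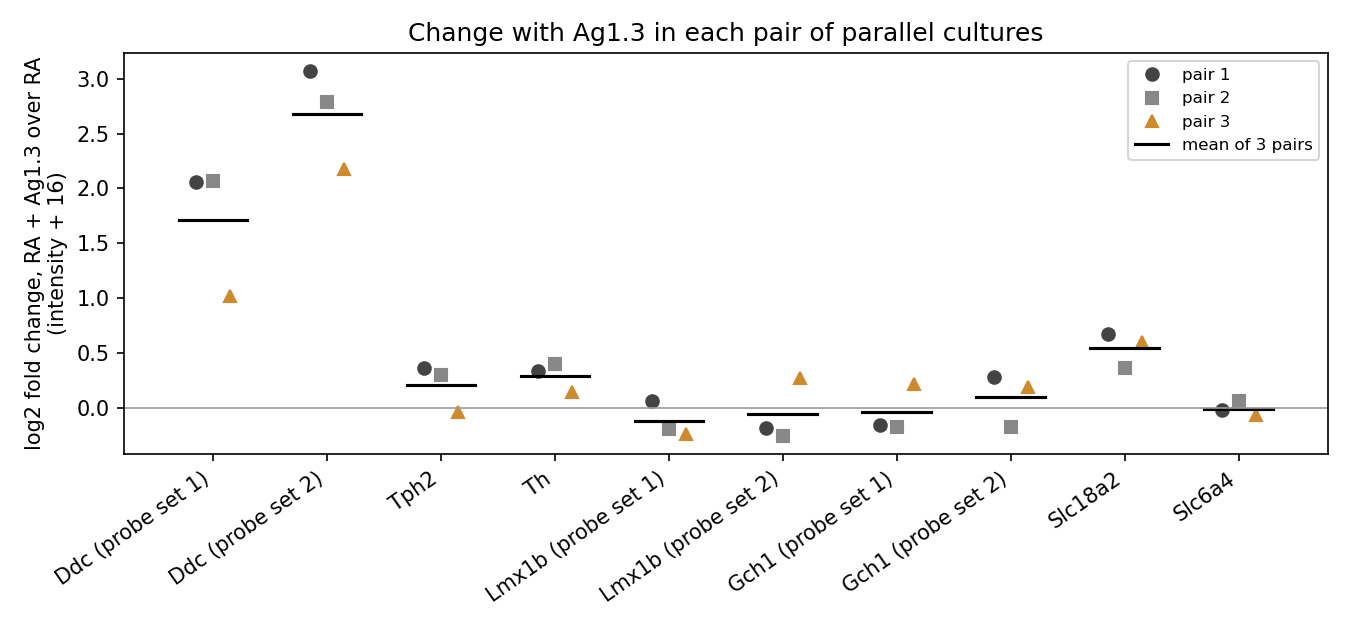
Log2 fold change of each probe set, RA + Ag1.3 over RA, in each pair of parallel cultures, with the mean of the 3 pairs as a bar. Both Ddc probe sets lie above 1 in every pair, with pair 3 lowest, Slc18a2 and Th lie above 0 in all 3 pairs, and Gch1, Lmx1b, Tph2 and Slc6a4 have pairs on either side of 0.

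In the limma fit over all 18193 genes, 1 of the 7 genes, Ddc, was past the threshold of an adjusted p of 0.05 and higher with Ag1.3, and none was lower. The background was 1.07% of all genes higher and 0.313% lower. Every Ag1.3 array was above every RA array for Ddc and Th, which held for 6.45% of all genes, and 3 of 3 pairs were higher for Ddc, Slc18a2 and Th, which held for 17.2%. Since the genes were selected on this comparison, nothing is read from these counts. The median log2 fold change of the 7 genes was 0.21, beside -0.0070 over all genes. None of the 7 was past the threshold in limma without replicate 1 or without replicate 2, where 2 had an unadjusted p under 0.05 and the log2 fold change of Ddc was 1.54 in either case.

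**Figure D3:**
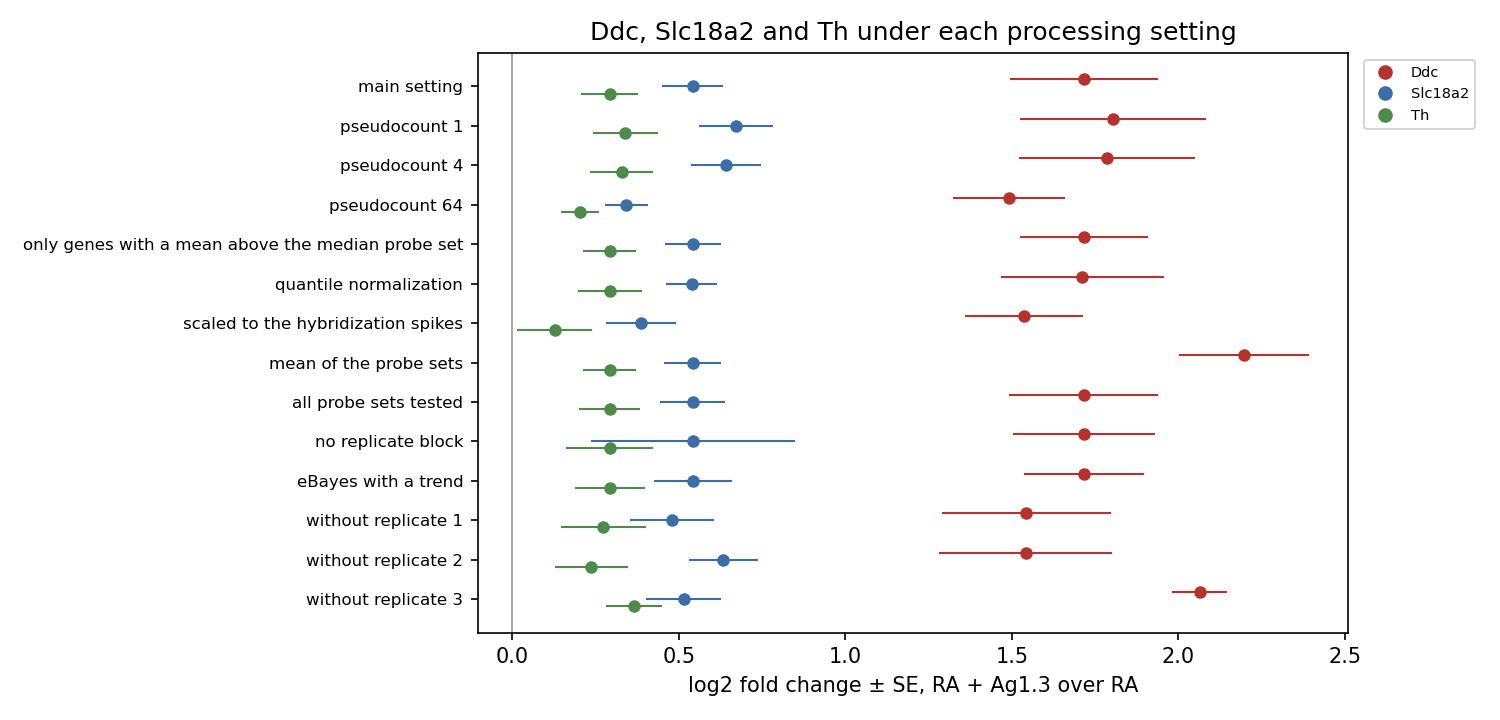
Log2 fold change ± SE of Ddc, Slc18a2 and Th, RA + Ag1.3 over RA, under the main and 13 other processing settings. Ddc ranges from 1.49 to 2.20, Slc18a2 from 0.34 to 0.67 and Th from 0.13 to 0.37, with no change of sign.

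The range over the 6 arrays on the log2 scale was 2.17 for Ddc, 1.58 for Slc18a2, 0.68 for Th, 0.66 for Lmx1b, 0.40 for Tph2, 0.28 for Gch1 and 0.17 for Slc6a4. Profiles most like those of Ddc and Slc18a2 were looked for among 11433 genes, by the root mean square distance of centred log2 values over 6 arrays, which share the treatment and the pairs. For Ddc they were Cbln1, a secreted synaptic organiser, at a distance of 0.27, the microtubule protein gene Mapt at 0.27 and the motor neuron factor Mnx1 at 0.28. Cbln1 read 284, 173 and 156 in Ag1.3 and 34.8, 47.9 and 55.4 in RA cultures, so it too had its smallest ratio in pair 3. For Slc18a2 they were the transcription factor gene Ebf2 at 0.085, the ephrin gene Efnb3 at 0.090 and Phf21b at 0.098. Ebf2 read 214, 143 and 94.5 in Ag1.3 and 127, 95.3 and 58.4 in RA cultures, with replicate 1 highest and replicate 3 lowest in both groups, the order of Slc18a2.

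Markers of other cells also differed between the groups. In the lists from here on, rose and fell mean an adjusted p under 0.05 in limma, as held for 1.07% and 0.313% of all genes. Of 9 general neuron markers, 7 rose with Ag1.3 and none fell, and their summed intensity was 5967 to 8465 in Ag1.3 and 1947 to 3323 in RA cultures. Elavl4, a neuronal RNA-binding protein, rose by a log2 fold change of 1.70 (adjusted p = 0.00287, limma), Stmn2, a microtubule regulator of growing axons, by 1.55 (adjusted p = 0.00363) and Nefm, a neurofilament subunit, by 1.72 (adjusted p = 0.00723), each higher in 3 of 3 pairs. Nefm read 1582, 1301 and 1114 in Ag1.3 and 506, 433 and 268 in RA cultures, again with replicate 1 highest and replicate 3 lowest in both groups. Ddc differed from Nefm in this order, since RA replicate 3 had the highest Ddc of its group. Pair 3 had the largest log2 fold change of Nefm, 1.99, and the smallest of Ddc. It also had the largest of Nefl, Tubb3, Dcx, Map2 and Snap25, but not of Elavl4, Stmn2 and Elavl3. The motor neuron markers past the threshold had their smallest in pair 3, as Ddc had. These were Isl1 at 3.33, Slc18a3 at 1.75, Lhx3 at 1.98 and Mnx1 at 1.10 in that pair. The mean log2 fold change of Nefm, 1.72, stood beside 1.72 and 2.68 for the Ddc probe sets, 0.54 for Slc18a2 and 0.29 for Th. Of 6 motor neuron markers measured, of 7 listed, 4 rose, with sums of 1254 to 2061 in Ag1.3 and 182 to 227 in RA cultures. They included Isl1 at 3.65 (adjusted p = 0.00363, limma) and Lhx3 at 2.86 (adjusted p = 0.0209), both LIM homeodomain factors, and Lhx3 did not pass without pair 1 or without pair 2. The RA values of Lhx3 lay in the unspiked range, so its fold change depends on the pseudocount, and its other probe set gave 0.69 (adjusted p = 0.146, limma over all probe sets). Of 5 floor plate markers measured, of 6 listed, 3 rose, with sums of 1885 to 2839 in Ag1.3 and 939 to 1139 in RA cultures. They included the matrix protein Spon1 at 2.73 (adjusted p = 0.00287, limma) and the ligand Shh at 1.55 (adjusted p = 0.0368), which did not pass without pair 1 or without pair 3 and whose other probe set was at background. The part of these cells in the levels of Ddc, Slc18a2 and Th was not tested.

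Ddc, Th and Slc18a2 are also known from cells outside the brain, and Lmx1b from dorsal interneurons. Of 9 endoderm markers measured, of 10 listed, none rose and 2 fell, namely Sox17 with a log2 fold change of -1.21 (adjusted p = 0.0159, limma) and Krt8 with -0.62 (adjusted p = 0.0448), both lower in 3 of 3 pairs. The other Sox17 probe set gave -0.47 (adjusted p = 0.202, limma over all probe sets). Neither gene passed without any 1 of the 3 pairs. The groups overlapped for both genes. Without the replicate block neither passed (adjusted p = 0.526 for Sox17 and 0.858 for Krt8, limma). The endoderm markers summed to 454 to 948 in Ag1.3 and 608 to 1230 in RA cultures, and 1 of the 9, Apoa1, was in or under the range of the unspiked controls on all 6 arrays. Sox17, Krt8, Epcam, Foxa1, Hnf4a and Apob read above that range on every array, which is no detection call. Hnf4a and Apob averaged below the median probe set intensity of 50.3 in both groups. The part of endoderm cells in the levels of Ddc was not tested. Of 5 neural crest and sympathetic markers measured, of 6 listed, none passed, with sums of 319 to 465 in Ag1.3 and 335 to 480 in RA cultures. Erbb3, a glial receptor, had -0.58 (adjusted p = 0.0706, limma) and the sympathetic factor Hand2 had 0.60 (adjusted p = 0.116). The RA values of Hand2 lay in the unspiked range. Another Hand2 probe set gave 0.19, and a further one read 1 on every array. Of 7 mast cell and blood markers none passed, 5 were in or under the unspiked range on every array, and the sums were 228 to 351 in Ag1.3 and 279 to 410 in RA cultures. Kit, a receptor of mast cells and of germ and crest cells, stood at -0.34 (adjusted p = 0.144, limma) and the embryonic globin Hbb-bh1 had 0.18 (adjusted p = 0.652). Of 4 dorsal interneuron markers measured, of 6 listed, none passed. They summed to 160 to 179 in Ag1.3 and 179 to 209 in RA cultures. This list covers dorsal interneurons at large, not only those with Lmx1b. Ptf1a had -0.43 (adjusted p = 0.0779, limma), with its Ag1.3 values in the unspiked range. Lbx1 had -0.12 (adjusted p = 0.555, limma) and Tlx3 had 0.05 (adjusted p = 0.876).

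Among the other enzymes and transporters of the monoamine pathway, no change passed the test. Of 18 measured, of 22 listed, none passed limma's test in either direction and none had an unadjusted p under 0.05. Over all 18193 genes, 2715 had such a p. Their log2 fold changes ran from -0.19 to 0.16, with a median of -0.01, and they summed to 3692 to 4039 in Ag1.3 and 3625 to 4158 in RA cultures. The lowest p were those of Pcbd2, which helps recycle tetrahydrobiopterin, at -0.19 (adjusted p = 0.357), and of Tph1, the tryptophan hydroxylase best known outside the brain, at 0.16 (adjusted p = 0.409). Tph1 read 17.9, 21.3 and 19.2 in Ag1.3 and 15.1, 18.3 and 13.7 in RA cultures, in or next to the unspiked range. Some of these act beside Th and Ddc in the same neurons. Dbh, which turns dopamine into noradrenaline, averaged 70.3 ± 6.35 in Ag1.3 and 77.2 ± 5.90 in RA cultures (SD, n = 3 each). Maoa, which degrades amines, averaged 341 ± 28.2 in Ag1.3 and 342 ± 27.4 in RA cultures (SD, n = 3 each). The noradrenaline transporter Slc6a2 averaged 74.5 ± 11.05 in Ag1.3 and 70.5 ± 3.98 in RA cultures (SD, n = 3 each), and the dopamine transporter Slc6a3 13.0 ± 1.91 in Ag1.3 and 14.4 ± 4.81 in RA cultures, all in the unspiked range. Slc6a3 and 3 other genes of the 18 were in or under that range on all 6 arrays, so no change of theirs could be seen. These 4 were picked for their roles after their values were seen. Of 17 receptors of serotonin, dopamine and noradrenaline measured, of 23 listed, none passed. An unadjusted p under 0.05 was found for 4 of them, beside 2715 of all 18193 genes. Among these 4, Htr2b at 0.22 and Htr7 at 0.23 were higher (adjusted p = 0.255 for each, limma), with some values in the unspiked range. The dopamine receptor Drd2 had -0.42 (adjusted p = 0.144, limma), with its Ag1.3 values in that range. The serotonin receptor Htr2c had -0.35 (adjusted p = 0.223, limma). The other Htr2c probe set gave 0.20, and 5 of the 6 values behind -0.35 lay in or under the unspiked range, so its direction is not settled. Drd2 and this Htr2c probe set passed, as lower, when the arrays were scaled to the hybridization spikes, a scaling that moved the median of all genes to -0.16.

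Genes listed as factors of monoamine neurons moved in both directions, with En2 the only one that fell. Not all of them are transcription factors, since Ret, a receptor, is counted too. Of 9 serotonin neuron factors measured, of 10 listed, 3 rose and 1 fell, of 12 dopamine neuron factors 2 rose and 1 fell, and of 8 noradrenergic factors measured, of 10 listed, 2 rose and none fell. The median log2 fold changes of the 3 lists, in that order, were 0.06, 0.05 and 0.32, beside -0.0070 over all genes. Foxa2, which acts in the floor plate and in serotonin and dopamine progenitors and counts in the first and second lists, rose by 2.35 (adjusted p = 0.00363, limma), Nkx2-2 by 3.22 (adjusted p = 0.00674), Nkx6-1 by 4.14 (adjusted p = 0.00791) and the proneural factor Neurog2 by 3.59 (adjusted p = 0.0180). Foxa2 is also a floor plate marker, and Nkx2-2, Nkx6-1 and Neurog2 are also known from ventral spinal progenitors and their neurons. Phox2a, which specifies noradrenergic neurons and also acts in cranial motor neurons, rose by 2.15 (adjusted p = 0.00287). All of these were higher in 3 of 3 pairs. The RA values of Nkx2-2 lay in the unspiked range, and its fold change ran from 2.01 to 4.31 over the other settings. For Nkx6-1 and Phox2a, 1 RA value each lay in that range. Their log2 fold changes ran from 3.08 to 4.87 and from 1.32 to 2.76 over the other settings. Nkx2-2 did not pass without pair 3, and Neurog2 did not pass without pair 1 or without pair 2.

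Ret and En2 were the other genes of these lists past the threshold. Ret, a receptor tyrosine kinase for the GDNF family, read 357, 280 and 398 in Ag1.3 and 92.7, 93.6 and 44.3 in RA cultures. All Ag1.3 values were above all RA values. Its log2 fold change was 1.997 ± 0.25 (adjusted p = 0.0364, limma), and 1.21 on its other probe set, and the call was lost when any 1 of the 3 pairs was left out, where adjusted p was 0.0505 to 0.125. En2, a homeodomain factor of the midbrain and anterior hindbrain that counts in the serotonin and dopamine lists, read 38.4, 56.4 and 59.9 in Ag1.3 and 102, 183 and 165 in RA cultures. It was lower in all 3 pairs with no overlap. Its log2 fold change was -1.28 ± 0.09 (adjusted p = 0.0104, limma), with adjusted p of 0.0501 without pair 2 and 0.0673 without pair 3. Over all these monoamine lists, counting each gene once, 6 of 59 measured genes rose and 1 fell, against 8 and 7 when the arrays were scaled to the spikes. Of all 18193 genes, 1.07% were higher and 0.313% lower in the main setting, against 287 and 1399 genes with spike scaling.

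**Figure D4:**
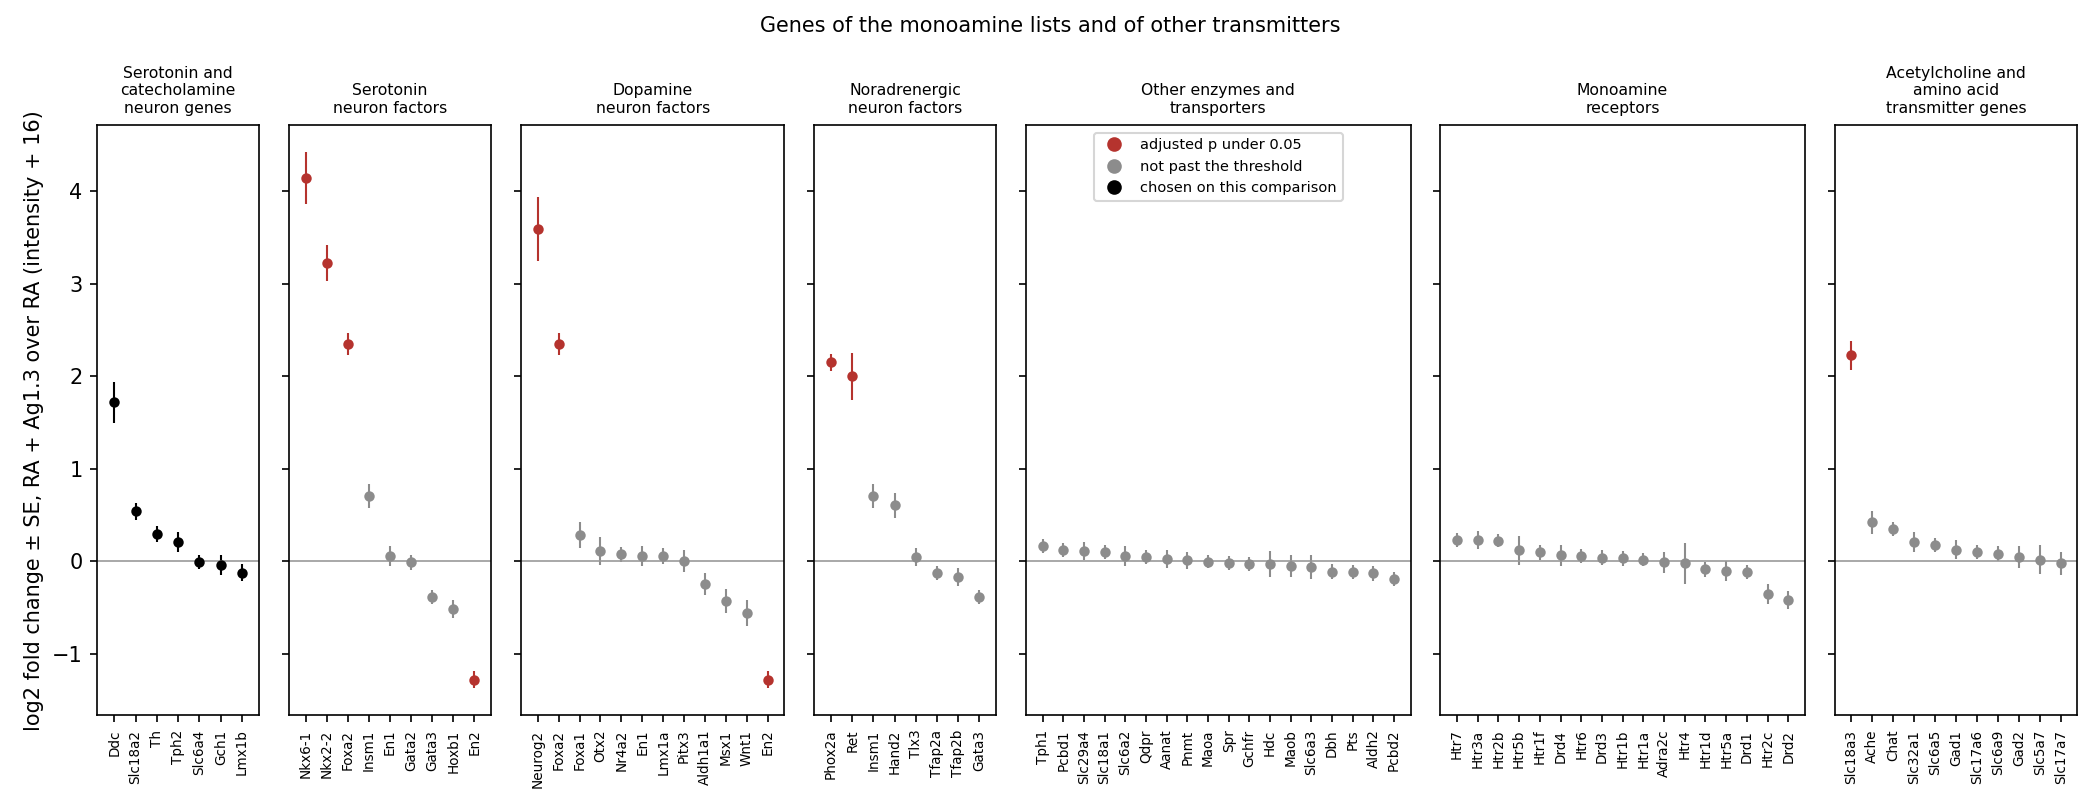
Log2 fold change ± SE, RA + Ag1.3 over RA, for each measured gene of the lists, with genes past an adjusted p of 0.05 in red, other genes in grey and the serotonin and catecholamine neuron genes in black without a call. The 18 other enzymes and transporters lie between -0.19 and 0.16, while the factors span from En2 at -1.28 to Nkx6-1 at 4.14.

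Genes of acetylcholine and amino acid transmission were counted for comparison. Of 11 measured, of 13 listed, 1 rose and none fell, with a median of 0.13. The gene that rose was Slc18a3, the vesicular acetylcholine transporter and so the counterpart of Slc18a2, and it is also among the motor neuron markers. It read 165, 118 and 89.8 in Ag1.3 and 16.5, 8.57 and 15.4 in RA cultures. Its RA values lay in the unspiked range, and the groups did not overlap. The log2 fold change was 2.22 ± 0.16 (adjusted p = 0.00968, limma), beside 0.54 ± 0.09 for Slc18a2, and the difference between the transporters was not tested. Slc18a3 did not pass without pair 2, at an adjusted p of 0.0512.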

How the data were processed

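The deposited table held 1 intensity per probe set and array on a linear scale, as the authors made it. How the probes were summarised and the arrays scaled, and with which software, is not given in the sources used here, and the values carry no genome build. Per the labels' protocols, total RNA was labelled by 3' in vitro transcription. After 64 control probe sets were left out, 45037 remained, of which the platform annotation paired 34945 with 1 symbol. For each of 18193 genes the probe set of highest mean log2(intensity + 16) over the 6 arrays was used, a pseudocount of 16 that understates changes of dim genes. Gene positions and promoter sequences are those of RefSeq for GRCm38.p6.

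Genes were tested two-sided with limma 3.58.1 in R 4.3.3 (lmFit, eBayes), Ag1.3 minus RA with the replicate number as a block, with Benjamini-Hochberg adjustment across the 18193 genes. The threshold was an adjusted p of 0.05. The script was tested on simulated data. The pairing comes from the series' design text, which describes parallel cultures, and deviations from group means correlated at 0.54, 0.19 and 0.56 for same-numbered arrays, against -0.51 to 0.07 for others. The p-values measure only the spread between 3 pairs of parallel cultures of 1 line, and having 6 arrays limits the precision. Arrays shared only 21 to 40 equal intensities above 1, so none was a duplicate.

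The members, lists and tests were chosen with earlier results of these data known. All members are named. From each other list the text names the genes past the threshold with the 3 smallest adjusted p, or, where none passed, the 2 of smallest p, and for the 2 members with the widest range the 3 genes with the nearest profile among genes above the median probe set. Some further genes of these lists are named beside them. Alternatives were other pseudocounts, a filter on dim genes, quantile normalization, scaling to the hybridization spikes, the mean of a gene's probe sets, adjustment over all probe sets, no block, a moderation that follows intensity, and leaving out each pair.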

Additional observations from a re-analysis of the deposited data

How the results depend on the processing

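The number of serotonin and catecholamine neuron genes past the threshold, 1 in the main setting, was 0 at pseudocounts of 1 and 4, with quantile normalization and with adjustment over all probe sets, where 3 of the 7 and 2411 to 2914 of all 18193 genes had an unadjusted p under 0.05 in limma, and 2 at a pseudocount of 64, with the filter on dim genes, with spike scaling and with the moderation that follows intensity. Leaving out 1 pair gave 0 to 1. The count with adjustment over all probe sets took only each gene's probe set of highest mean. For Ddc this was 1426215_at, which did not pass there (adjusted p = 0.0587, limma over all probe sets). The second Ddc probe set, 1430591_at, did pass there (adjusted p = 0.0108, limma over all probe sets). Genes of the other monoamine lists, 7 in the main setting, numbered 0 at a pseudocount of 1 (18 with an unadjusted p under 0.05), 2 at 4 and 15 with spike scaling, and 4 to 5 without 1 pair. For acetylcholine and amino acid transmitter genes the count of 1 became 0 at pseudocounts of 1 and 4 (4 with an unadjusted p under 0.05 at 1), and 0 to 1 without 1 pair. Without the replicate block these 3 counts were 1, 5 and 1. In the settings where 2 of the 7 genes passed, the second was Slc18a2 (adjusted p = 0.0090 to 0.0397, limma). Its adjusted p was 0.0696 in the main setting and 0.808 without the replicate block (limma).

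Over all genes, 252 passed (195 higher, 57 lower). The count was 0 at a pseudocount of 1 (2411 with an unadjusted p under 0.05), 18 at 4, 831 at 64 (473 higher, 358 lower), 951 with the filter (497 higher, 454 lower), 1686 with spike scaling (287 higher, 1399 lower), 131 over all probe sets, 86 without the replicate block, 891 with the moderation that follows intensity (515 higher, 376 lower) and 35 to 62 without 1 pair. Spike scaling moved the median of all genes to -0.16, beside -0.0070, and the fold changes of Slc18a2 and Th under it are relative to that shift. The cause of these differences between settings was not tested.

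The log2 fold change of Gch1, -0.04 in the main setting, was 0.029 with the mean of its probe sets and -0.1646 to 0.027 without 1 pair, being positive without pair 1 (0.0207) or pair 2. That of Slc6a4 was -0.0434 to 0.0223 without 1 pair. No other member changed sign. The values of Tph2, Slc6a4 and the second Ddc probe set in RA cultures are limited by background, and the number of pairs limits all calls.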

Other observations

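The genes next to Ddc on chromosome 11 were looked at after its values were seen. Fignl1, 5.12 kb away in RefSeq's GRCm38.p6 annotation and known for a role in DNA repair, read 1395, 1389 and 1360 in Ag1.3 and 1319, 1423 and 1356 in RA cultures, a log2 fold change of 0.02 ± 0.08. The groups overlapped, and its second probe set gave 0.21 ± 0.13. The imprinted adaptor gene Grb10, 32.4 kb away on the other side, read 4139, 3955 and 3156 in Ag1.3 and 3099, 3002 and 2293 in RA cultures. Its Ag1.3 values were all above its RA values, with a log2 fold change of 0.42 ± 0.07 (adjusted p = 0.0721, limma) and 3 of 3 pairs higher, and its other probe sets gave 0.53 and 0.51. Grb10 did not pass the threshold. Beyond them, Ikzf1 had log2 fold changes of 0.02 and 0.16 on its probe sets and Cobl of 0.25 and -0.30. Ddc, at 1.72, lay between neighbours with smaller differences.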
